A study of Mus musculus with 7 samples.

Results

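Dense clusters of FRA2 binding events were examined in mouse striatal cells with normal and with expanded huntingtin. A cluster, called a chain from here on, is a run of FRA2 events on 1 chromosome in which each event lies at most 5000 bp from the next, and a dense chain holds at least 6 events. Of 42653 chains in the FRA2 table, 29459 were lone events, 12749 held 2 to 5 events and 445 were dense. The dense chains held 3133 of 64579 FRA2 events (4.85%). Given the listed events, membership depended on position alone. Which events are listed depends on reads, and 28.0% of member events were marked present by the authors in Q7 only and 14.1% in Q111 only. With events of at least 40 reads, 239 chains were dense.

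FRA2 and JUND are basic leucine zipper proteins, a Fos and a Jun family member, that pair with each other or with other family members to form AP-1, a transcription factor that responds to growth and stress signals. FRA2 needs a partner to bind DNA, whereas JUND can also bind as a homodimer. SOX2 is a factor of neural progenitors that binds many of their enhancers. Enhancers that lie close together, each with its own AP-1 sites, give runs of events along the genome, and such runs can respond as a block or site by site.

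Chromatin immunoprecipitation with sequencing had been done on STHdhQ7/Q7 cells, in which both huntingtin alleles encode a short glutamine stretch, and on STHdhQ111/Q111 cells, in which both encode a stretch expanded into the disease range. They are called Q7 and Q111 here. Both lines came from embryonic day 14 striatum of 129SvEv/CD1 mice, were used at fewer than 15 passages, and were grown at 33 °C before 2 days at 39 °C. Each genotype is represented by 1 cell line, so genotype and line cannot be told apart. The antibodies were Fra-2 (sc-604x), Jund (sc-74x), Sox2 (MAB2018) and IgG (sc-2027). SOX2 was measured in Q7, the AP-1 subunits in both lines, and the labels list IgG in both as well. Every group was 1 sample in which 2 replicates had been pooled. No replicate spread exists, and each test below compares libraries, not the genotypes.

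The tables give reads per event at a base position on mm9. Summed over listed events, FRA2 had 3340554 (Q7) and 3498922 (Q111) reads, JUND had 1660158 and 1609483, and SOX2 had 1193914. These sums cover listed events and are not library sizes. Dense chains held 6.59% of the FRA2 reads in Q7 and 5.95% in Q111. No annotation of mm9 was used here, so chains are named by position without genes.

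Dense chains spanned 1943 to 29988 bp, with a median of 10495 bp and quartiles of 7843 and 13691 bp. They held 6 to 20 events, and 225 of the 445 held exactly 6. Neighbouring events lay 16 to 4998 bp apart, with a median gap of 1443.5 bp. Of the 2688 gaps, 645 were 500 bp or shorter and 29 were 100 bp or shorter. On either side of the size limit, the 500 chains of 5 events had a median log2 fold (Q111 over Q7) of -0.14 and the chains of 6 events one of -0.10. For 94 dense chains the next event outside lay 5001 to 6000 bp away, just past the gap limit.

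Summed FRA2 reads per dense chain ran from 28 to 2471.4 in Q7, with a median of 422.1, and from 41 to 8651.6 in Q111, with a median of 398. Reads were uneven inside a chain. The strongest event held a median of 36.4% of a chain's reads (range 15.8% to 74.6%). Ordered by reads, the strongest events had a median of 310 reads over both lines and the sixth events one of 42 reads. Of the strongest events, 96.9% carried the authors' present mark in both lines, 98.7% had a JUND event within 100 bp and 64.5% a SOX2 event. The same shares for the sixth events were 21.1%, 37.1% and 23.4%. The strongest event was the first or last of its chain in 29.9% of chains, while 28.4% of member events sat at an end. Dense chains thus held a few strong sites shared by both lines and several weak ones listed more often in a single line. Present marks and this order both reflect reads, and equally weak events outside dense chains were not compared.

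A chain or event was called different when an exact binomial test of its Q111 share of reads gave an adjusted p below 0.05 and the fold was at least 2. Benjamini-Hochberg adjustment ran over the whole table. By that rule 21 dense chains (4.72%, 95% Wilson interval 3.11% to 7.11%) had more FRA2 reads in Q111, against 24.1% of all 42653 chains. In the other direction 48 (10.8%, interval 8.23% to 14.01%) had more in Q7, against 19.3% of all chains. The remaining 376 were not called. Called in either direction, dense chains were thus rarer than chains at large. The median log2 fold was -0.18 for dense chains and 0.05 for all chains. The SD of the log2 folds was 1.58 for lone events, 1.22 for chains of 2 to 5 events, 0.73 for dense chains and 0.47 for the 25 chains of 10 or more events. None of those 25 was called, and their log2 folds ran from -0.95 to 0.93. A chain's fold is an average over its events, and reads per chain rose along the same order, from a median of 59 for lone events to 810.6 for dense chains.

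The calls leaned to Q7, with 30.4% of the called dense chains higher in Q111. With the lines scaled by control reads, which moved the median over all FRA2 events to -0.36 on the log2 scale, the numbers became 10 in Q111 and 100 in Q7, a share of 9.09%. The deposited control reads themselves differed, with a log2 ratio (Q111 over Q7) of 0.41 summed over all FRA2 events and 0.54 over dense chains. In chains higher in Q111 that control ratio was 0.12, in chains higher in Q7 0.59 and in uncalled chains 0.57. The part of the control in the calls was not tested.

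**Figure D1:**
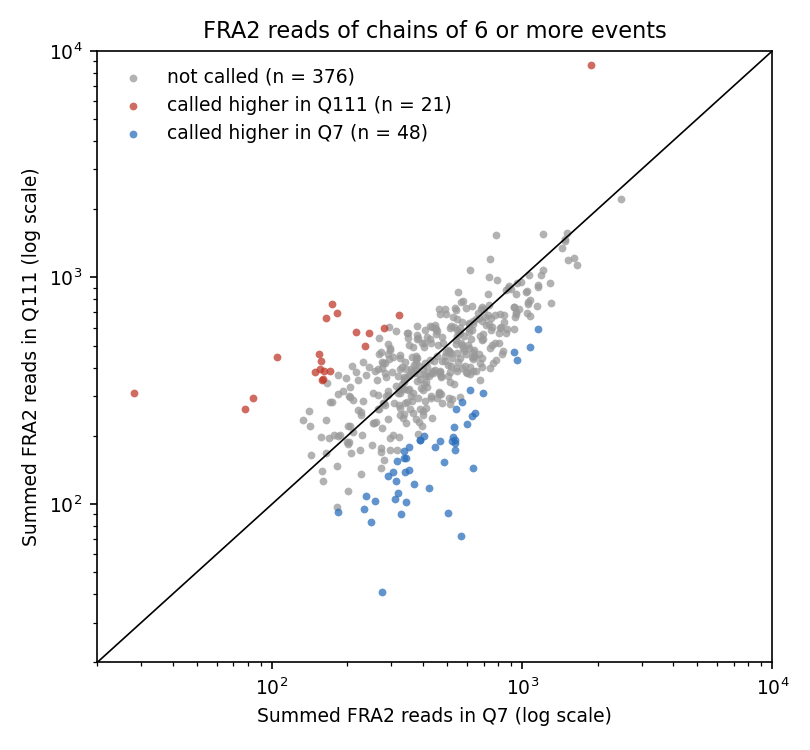
Summed FRA2 reads of each of the 445 dense chains in Q7 (x axis) and Q111 (y axis), both on log scales, with a line where the lines have equal reads. Red points are the 21 chains called higher in Q111 and blue points the 48 called higher in Q7. The point at the top right is the chain on chromosome 11 with 8651.6 reads in Q111.

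Among chains higher in Q111, the one farthest from equality lay on chromosome 2, 84243013 to 84253003. Its 6 events summed to 28 FRA2 reads in Q7 against 309 in Q111, 10.5-fold more (95% interval 7.25 to 16.3, exact binomial test, adjusted p = 1.67e-56). All 6 were called higher in Q111, and all 6 were marked present in Q111 only. The chain is thus dense only through events listed for Q111. Its strongest event, 7.50 kb from the first, had 4.1 reads in Q7 against 119.4 in Q111. The Q7 reads of this chain were close to its Q7 control of 24.0, so the size of the fold depends on the few Q7 reads. With control subtracted the log2 fold rose from 3.39 to 5.83. Its only JUND event had 9 reads in Q7 against 84 in Q111, and it held no SOX2 event.

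A chain on chromosome 8, 85390371 to 85398312, had 174 reads in Q7 against 761 in Q111, 4.23-fold more (interval 3.59 to 5.02, exact binomial test, adjusted p = 6.20e-81). From left to right its 6 events had 44, 8.4, 20.6, 32, 33 and 36 reads in Q7 and 197, 43.1, 96.9, 152, 199 and 73 in Q111. The first 5 events had log2 folds of 2.10 to 2.53, a narrow band over 6.38 kb. The last, at 7.94 kb, had 0.96 and differed from the others by Fisher's exact test. This chain moved almost as a block. Of its 6 events, 5 were marked present in both lines and 1 in Q111 only.

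On chromosome 2, 107154963 to 107167582, all 7 events were called higher in Q111, and none passed the test against the others. The chain had 105 reads in Q7 against 445.9 in Q111 (4.10-fold, interval 3.32 to 5.14). Event log2 folds ran from 1.39 to 2.76, and the last and strongest event had 23 reads in Q7 against 151 in Q111. All 9 events of the chain on chromosome 15, 51005738 to 51022353, were also called higher in Q111, with 165 reads in Q7 against 660 in Q111. The 7 events on chromosome 10, 68164552 to 68170454, went the same way, with 182 and 693 reads. Within that last chain the log2 folds ran from 1.41 to 3.32, so a shared direction did not mean a shared size. Marked present in Q111 only were 4 of the 7 events on chromosome 2, 6 of 9 on chromosome 15 and 4 of 7 on chromosome 10. These chains are thus dense only through events listed for Q111, and such listing favours a shared direction.

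Smaller in reads were the chains on chromosome 6, 22228103 to 22231269 (84 reads in Q7, 295 in Q111), and on chromosome 4, 4103026 to 4108848 (77.7 and 261.8). They held 5 and 4 called events of 6, all higher in Q111. In both chains the remaining events also lay above 0, with log2 folds of 0.69 upwards. In each, 5 of the 6 events were marked present in Q111 only, so the same limit holds.

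The chain with the most Q111 reads stood apart. On chromosome 11, 3047381 to 3064560, 8 events had 1889.3 FRA2 reads in Q7 against 8651.6 in Q111 (4.43-fold, interval 4.22 to 4.66). It also had 828.8 control reads in Q7 against 877.4 in Q111, whereas the median dense chain had 31.2 and 42.4. Only 2 dense chains held an event with 40 or more control reads. The control was almost equal in both lines there, and the part of those reads in the FRA2 value was not tested. With control subtracted its log2 fold was 2.87 in place of 2.15.

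Among chains higher in Q7, the farthest from equality lay on chromosome 8, 29256561 to 29261735, with 567 reads in Q7 against 72 in Q111. That is 8.08-fold more in Q7 (interval 6.35 to 10.5, exact binomial test, adjusted p = 2.34e-96). The 6 events had 105.1, 37.9, 30, 181.2, 182.8 and 30 reads in Q7 and 5, 0, 7, 20.9, 34.1 and 5 in Q111. Every event was called, and the strong pair in the middle kept the most Q111 reads. Marked present in Q7 only were 4 of the 6, so this chain is dense only through events listed for Q7.

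On chromosome 9, 41172626 to 41184357, 274 reads in Q7 stood against 41 in Q111 (6.83-fold higher in Q7, interval 4.96 to 9.83). The Q111 control of this chain was 53.7 reads, above its FRA2 reads, so the size of the fold depends on few Q111 reads. There 5 of the 6 events were called, with 2 to 4 Q111 reads each. The same 5 were marked present in Q7 only. The third event had 27 reads in each line and was the single event of the chain that did not move with it. It accounted for most of the Q111 reads that remained.

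The chain on chromosome 8, 13504190 to 13517498, had 507 reads in Q7 against 91 in Q111. All 6 events were called, with log2 folds of -1.45 to -3.00, and 5 of them were marked present in Q7 only. Subtracting the control, which in Q111 was 57.3 reads, moved its chain log2 fold from -2.52 to -3.68. On chromosome 17, 6172586 to 6180975, 637 reads in Q7 stood against 144 in Q111, and 5 of the 7 events were marked present in Q7 only. The left end of that chain lay between -0.78 and -1.76 on the log2 scale over 4 events, and the right end, from 6.98 kb on, between -2.89 and -4.62 over 3 events.

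Another 4 chains complete the 8 farthest ones. They lay on chromosome 1 from 100086591 (422.1 and 118 reads), chromosome 3 from 138175441 (326.9 and 90), chromosome 16 from 56870107 (343 and 102) and chromosome 7 from 56500936 (485.9 and 154). On chromosome 3 all 7 events were called higher in Q7, none passed the test against the others, and the log2 folds ran from -1.26 to -2.46. Of those 7 events, 6 were marked present in Q7 only. The chains on chromosomes 1, 16 and 7 each held 4 such events of 6. On chromosome 7 only 3 of 6 events were called, and an event at 3.26 kb with 79 reads in Q7 and 67.5 in Q111 lay beside one at 3.41 kb with 54.2 and 24. The shortest dense chain, on chromosome 15, 6524415 to 6526357, was also higher in Q7, with 340 reads against 137.9 (2.54-fold, interval 2.08 to 3.12). It is given for its length and was chosen after its values were seen.

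Event by event, 412 of the 3133 member events (13.2%) were called higher in Q111, against 23.3% of all FRA2 events, and 752 (24.0%) higher in Q7, against 21.4% of all. The share higher in Q7 was thus near that of the whole table, and the share higher in Q111 lay below it. The median event log2 fold was -0.28 in dense chains and 0.00 over the table. Present marks in both lines were carried by 57.9% of member events and 47.6% of all events. Marks in Q111 only were carried by 14.1% and 25.7%, and marks in Q7 only by 28.0% and 26.7%. Member events were stronger, with a median of 77.2 reads against 64.

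Folds agreed within a chain only in part. In 76 dense chains every event lay on the same side of 0, 17 above and 59 below, and in 369 chains the events fell on both sides. All events shared a side in 7689 of the 12749 chains of 2 to 5 events, in 139 of the 500 of 5 and in 40 of the 225 of 6. A chain with more events has more room for both sides. Events called in opposite directions occurred together in 124 chains (27.9%), a share that was not counted over smaller chains. Another 186 chains held called events higher in Q7 only, 100 held called events higher in Q111 only, and 35 held no called event. The SD of event log2 folds was 1.02 within chains and 0.67 between chains, where counting error alone gave 0.39. Chains thus accounted for 30.1% of the variance of member events. The range of log2 folds inside a chain had a median of 2.48.

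Each event was set against the summed other events of its chain by Fisher's exact test, adjusted over all 35120 events that have a chain neighbour. In dense chains 1161 events (37.1%) differed, against 31.0% of all events tested. Of these, 553 lay further towards Q111 than their chain and 608 further towards Q7, by a median of 1.35 on the log2 scale. They fell in 407 of the 445 chains, and in 162 chains they made up at least 50% of the events. The differing events had a median of 96 reads and the others 68, so the test had more reads to work with there. A dense chain also has more other events to sum than a smaller chain, which makes a difference easier to call. By chain size the share was 32.8% for 5 events, 36.5% for 6, 38.1% for 7, 37.9% for 8 or 9 and 34.8% for 10 or more.

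Where the chain as a whole was called, agreement was closer. In the 21 chains higher in Q111, 124 of 138 events (89.9%) had the sign of the chain, 101 were called in that direction and 4 in the other. In the 48 chains higher in Q7, 292 of 313 events (93.3%) had the chain's sign, 215 were called with it and 2 against it. The uncalled chains held 309 called events with more reads in Q111 beside 533 with fewer, and 119 of the 376 held both kinds. The call of a chain and its events come from the same reads, so these counts describe how the sums were made up. Uncalled sums were not all near even, and near-even sums were not counted apart. In those 119 chains an uncalled sum hid events called in opposite directions.

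The chain on chromosome 6, 31008994 to 31038981, shows this. It was the longest, with 19 events over 29988 bp, and its sums of 1502.9 reads in Q7 against 1567.5 in Q111 were almost equal (log2 fold 0.01, interval of the fold 0.94 to 1.09). Yet 11 of its 19 events differed from the others, more than in any other dense chain. An event 2.90 kb from the start had 75.2 reads in Q7 against 250.1 in Q111. The event 8.04 kb from the start had 97 and 44, and the event at 18.34 kb had 37 and 7. Called events of opposite direction alternated along this chain.

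A split by position appeared in other chains of the same group. On chromosome 11, 104473096 to 104489218, the first 5 of 9 events all lay below 0, with log2 folds of -0.87 to -2.35 over 7.85 kb. Its first event had 263 reads in Q7 against 53 in Q111. Of the last 4 events, 3 lay above 0, with 37 and 53, 130 and 208, and 7 and 21 reads, and the strongest event of the chain was among these (130 and 208). On chromosome 8, 37247318 to 37263528, the first 3 of 7 events had log2 folds of 0.36 to 2.65. Its last 3 had -1.25 to -1.88, and the sums were even at 611 and 625.

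In the chain on chromosome 8, 23865170 to 23876363, all 7 events differed from the rest. Of the 4 on the left, the first had 54.7 reads in Q7 against 82.3 in Q111 (log2 fold 0.54). The next 3 were nearly even, with log2 folds of -0.06 to -0.17. The 3 on the right, from 9.49 kb on, had 188.4 and 73.7, 125.6 and 16.3, and 186 and 70. The chain sum (923 and 594 reads) matched neither side. On chromosome 3, 121285235 to 121307801, 7 of 10 events differed, and here the directions alternated: the last event had 21.9 reads in Q7 against 56.9 in Q111, and its neighbour 309 and 155.

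**Figure D2:**
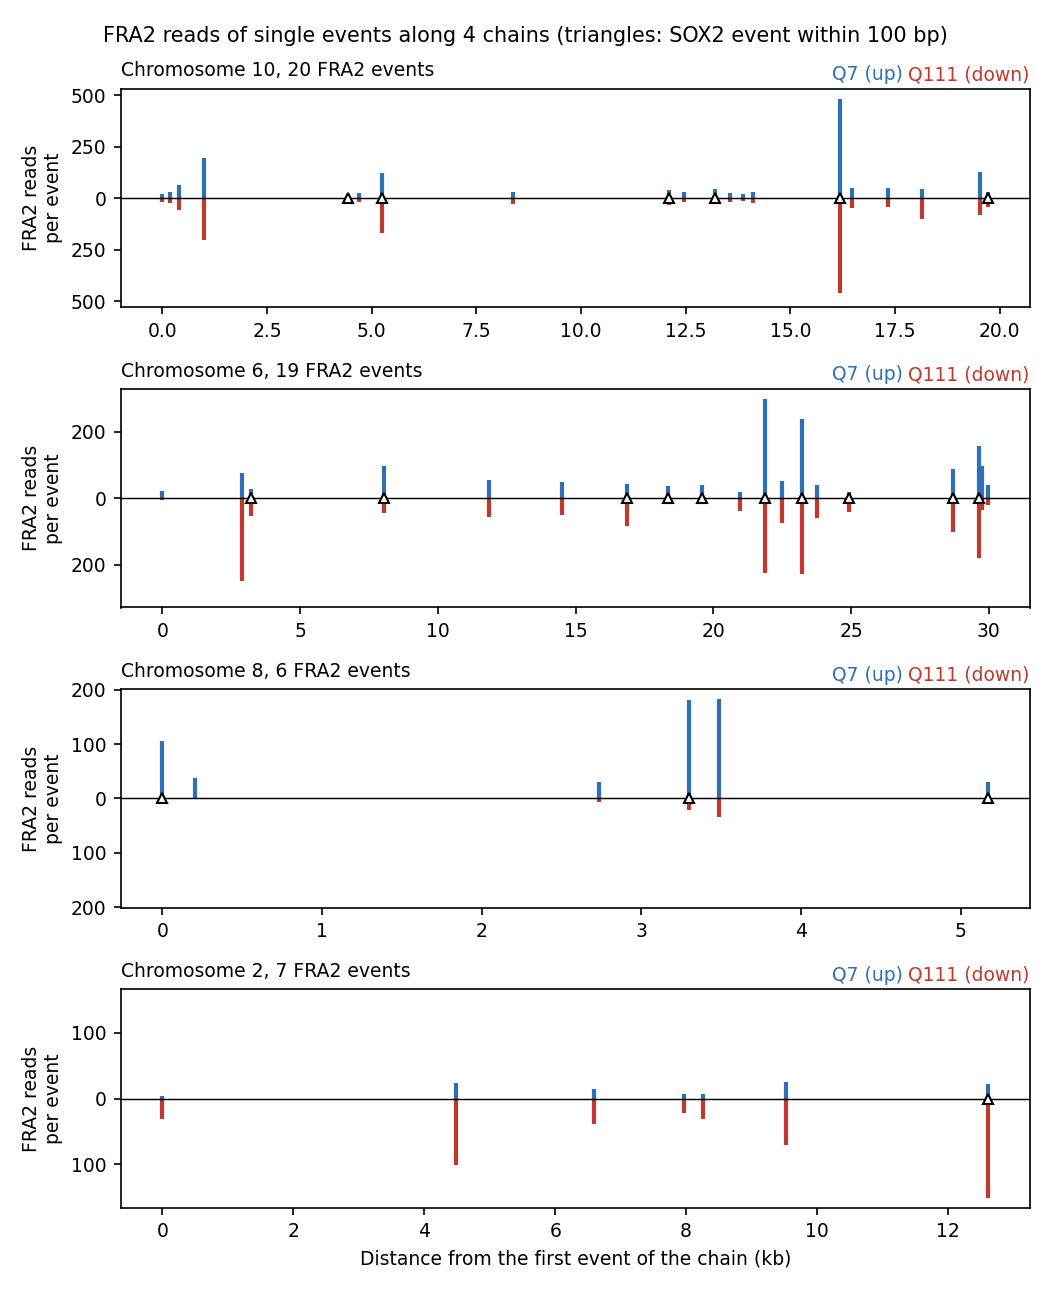
FRA2 reads of single events along 4 dense chains, by distance from the first event in kb, with Q7 drawn upwards and Q111 downwards and triangles at events with a SOX2 event within 100 bp. The chromosome 10 and 6 chains are the ones with 20 and 19 events and near-equal sums, the chromosome 8 chain had 567 reads in Q7 against 72 in Q111, and the chromosome 2 chain had 105 and 445.9.

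The chains with the most events had small differences. On chromosome 10, 79610545 to 79630280, 20 events summed to 1475.8 reads in Q7 against 1450.1 in Q111 (log2 fold -0.07, interval of the fold 0.88 to 1.02). Its strongest event had 481.2 and 459.7 reads, and only 4 events differed from the others. The event at 18.16 kb had 45 and 101 reads, and the event at 13.21 kb had 44.6 and 21.6. On chromosome 15, 77628554 to 77654331, 18 events had 1516.3 and 1190.7 reads, and on chromosome 19, 5793245 to 5818228, 17 events had 1290.4 and 940.5. Both lay below the 2-fold limit, at log2 folds of -0.39 and -0.50. The chain with the most Q7 reads, on chromosome 15, 76020471 to 76044248, had 16 events with 2471.4 and 2207.0 reads. Its strongest event had 716 and 742.8 reads. Another of the 5 chains with the most reads lay on chromosome 15 from 64443150, where 1487.9 and 1483.5 reads hid 2 events called higher in Q111 and 3 called higher in Q7.

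Likeness of folds fell with distance. Between neighbouring member events 101 to 250 bp apart, Spearman's rho of the log2 folds was 0.71 (246 pairs). It was 0.63 at 251 to 500 bp (370 pairs), 0.53 at 501 to 1000 bp (426), 0.29 at 1001 to 2500 bp (770) and 0.29 at 2501 to 5000 bp (847). Over all FRA2 events it was 0.42 at 1001 to 2500 bp, 0.36 at 2501 to 5000 bp and 0.31 at 5001 to 10000 bp, past the limit of a chain. In that set rho was thus higher within the gap limit than just past it. Beyond 1000 bp, neighbours in dense chains had a lower rho than all FRA2 events at the same gaps. These pairs share libraries and chains and are given as a description.

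The 29 pairs within 100 bp behaved differently, with a rho of 0.30 and a Pearson r of -0.63. Without the pair farthest apart in log2 fold, r was 0.49 and rho 0.44 (28 pairs). That pair lay on chromosome 6. Its events at 71673680 and 71673698, 18 bp apart, had 0 and 53.2 reads in Q7 and 54.4 and 0.1 in Q111. Each had its reads in a different line, and the sum over the pair was nearly equal. This pair was chosen after its values were seen, and it gives that chain (171 and 281 reads) the widest range of log2 folds, 13.26. Whether such a pair is 1 site placed differently in each line was not tested. Over all dense chains 62 of 2688 neighbouring pairs were called in opposite directions, at a median gap of 2541.5 bp. At 2501 to 5000 bp these were 31 of 847 pairs, against 248 of 5953 in chains of 2 to 5 events. At 1001 to 2500 bp they were 19 of 770 against 155 of 5238, and at 501 to 1000 bp 7 of 426 against 45 of 3116. At these gaps the shares were close, so such pairs were not particular to dense chains.

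**Figure D3:**
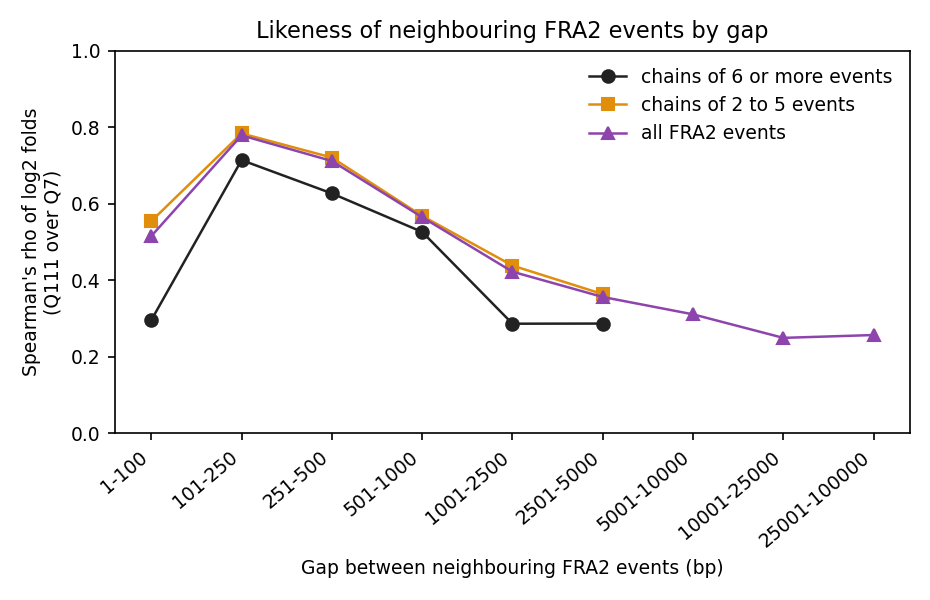
Spearman's rho of the log2 folds (Q111 over Q7) of neighbouring FRA2 events, by the gap between them in bp, for dense chains (black), chains of 2 to 5 events (orange) and all FRA2 events (purple). In dense chains rho is 0.71 at 101 to 250 bp and 0.29 at 2501 to 5000 bp. The first point of the dense chains rests on 29 pairs.

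JUND, the partner subunit, was listed in every dense chain and in 26214 of the 42653 chains of any size. A longer chain has more room for such an event. Within a chain's span and 100 bp on either side lay 1 to 20 JUND events, with a median of 5 and a total of 2246. Of these, 278 had no FRA2 event within 100 bp. Among member FRA2 events 65.1% had a JUND event within 100 bp, against 55.3% of all FRA2 events. In 66 chains there were at least as many JUND as FRA2 events, and in 5 chains there was a single JUND event.

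Summed JUND reads were tested by the same rule, adjusted over the 26214 chains of any size with a JUND event. In 18 dense chains (4.04%) JUND was higher in Q111, against 18.5% of all such chains, and in 66 (14.8%) it was higher in Q7, against 22.3%. Of the called chains 21.4% were thus higher in Q111. Scaled by total reads the numbers were 25 and 54, a share of 31.6%. Scaled by control reads, which moved the median log2 fold of all JUND events from -0.13 to -0.79, they were 6 and 219, a share of 2.67%. By event, 232 of the 2246 JUND events (10.3%) were called higher in Q111, against 17.4% of all JUND events. Another 598 (26.6%) were higher in Q7, against 23.3%.

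Both subunits pointed the same way in most dense chains. FRA2 and JUND were both called higher in Q111 in 16 chains and both higher in Q7 in 41, and no chain had opposite calls. These 16 are 76.2% of the FRA2 list and 88.9% of the JUND list, and the 41 are 85.4% and 62.1%. JUND alone was called higher in Q7 in 25 chains and higher in Q111 in 2, and FRA2 alone was called in 12. The sign was shared in 391 chains. Across the 445 chains the log2 folds of the subunits had a Pearson r of 0.91 and a Spearman's rho of 0.89, and across all 26214 chains with JUND the Pearson r was 0.89. Chains of the same cells and lines are not independent samples, and these values are descriptions.

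In the chains named above whose FRA2 sum was called, the JUND sum had the same direction. On chromosome 8 from 29256561, its 2 events had 183 reads in Q7 against 19 in Q111 (9.90-fold higher in Q7, interval 6.30 to 17.2, exact binomial test, adjusted p = 4.21e-34). On chromosome 8 from 13504190, 6 JUND events had 300.9 and 52.7 reads. On chromosome 10 from 68164552, 4 events had 62 and 288 reads (4.39-fold higher in Q111, interval 3.35 to 5.91). On chromosome 4 from 4103026, 3 events had 23 and 131. With control subtracted the JUND log2 folds of the first 2 and the last of these chains went from -3.31, -2.57 and 2.41 to -4.10, -7.28 and 3.40. For the chain from 13504190 the JUND control in Q111 was 71.1 reads, above its 52.7 JUND reads. The size of -7.28 thus rests on the few reads left after subtraction. For the chains on chromosome 15 from 51005738 (75 and 205 reads) and on chromosome 6 from 22228103 (86 and 255), the JUND call was lost when the lines were scaled by control reads.

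JUND followed FRA2 inside chains as well. Of the 1161 events that differed from their chain, 832 had a JUND event within 100 bp in a chain with at least 2 JUND events. In 781 of them (93.9%) the JUND fold departed from the JUND sum of the other events in the same direction as FRA2 did. Among the other member events that share was 66.5% of 1203. The departures thus appeared with a second antibody and in separate libraries of the same lines. JUND events called in both directions occurred in 73 chains, 53 of which were among the 124 chains with FRA2 events called in both directions (42.7% of the FRA2 list, 72.6% of the JUND list). Smaller chains were not counted in this way.

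The difference between the subunits' own changes was tested by Fisher's exact test on the 4 summed read numbers. It passed an adjusted p of 0.05 in 18 dense chains (4.04%), against 0.763% of all chains with JUND. In 13 of the 18 FRA2 lay further towards Q111 and in 5 JUND did. Dense chains hold more reads than most chains, so a difference of a given size is more easily called in them. FRA2 was summed over all FRA2 events of a chain and JUND over the listed JUND events. The sums can thus cover different sites, and the part of such sites in the difference was not tested. With control subtracted, an alternative chosen after seeing the data, 18.0% of dense chains (80) passed, against 5.22% of all. Without the 100 bp margin around a chain 11.04% passed, against 6.33% of all, and with gaps of at most 2500 bp 1.01% of 99 chains did. The median difference of the log2 folds, FRA2 minus JUND, was 0.13 in dense chains and 0.11 over all chains with JUND.

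The called differences ranged in size from 0.47 to 1.33 on the log2 scale. One of the 5 chains with the smallest p lay on chromosome 10, 84034043 to 84047717. There FRA2 had 155.9 reads in Q7 against 396 in Q111 (2.46-fold higher in Q111, interval 2.04 to 2.98), while JUND had 126.7 and 139.6 (interval of the fold 0.82 to 1.34). The log2 folds differed by 1.23 (Fisher's exact test, adjusted p = 0.000249). The FRA2 sum held 7 events and the JUND sum 4. At the strongest FRA2 event the log2 folds of FRA2 and JUND were 1.53 and 1.31. At 4.99 kb they were 1.06 and -0.34, and at 6.37 kb 0.23 and -0.30. The FRA2 event with the highest log2 fold, 2.54, had no JUND event within 100 bp. With scaling by control reads the FRA2 call of this chain was lost. On chromosome 19, 34437353 to 34444339, FRA2 was even, with 290 and 315 reads, and JUND was lower in Q111, with 212 and 117. That even FRA2 sum joined 3 events on the left that lay above 0 with 3 on the right below 0.

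**Figure D4:**
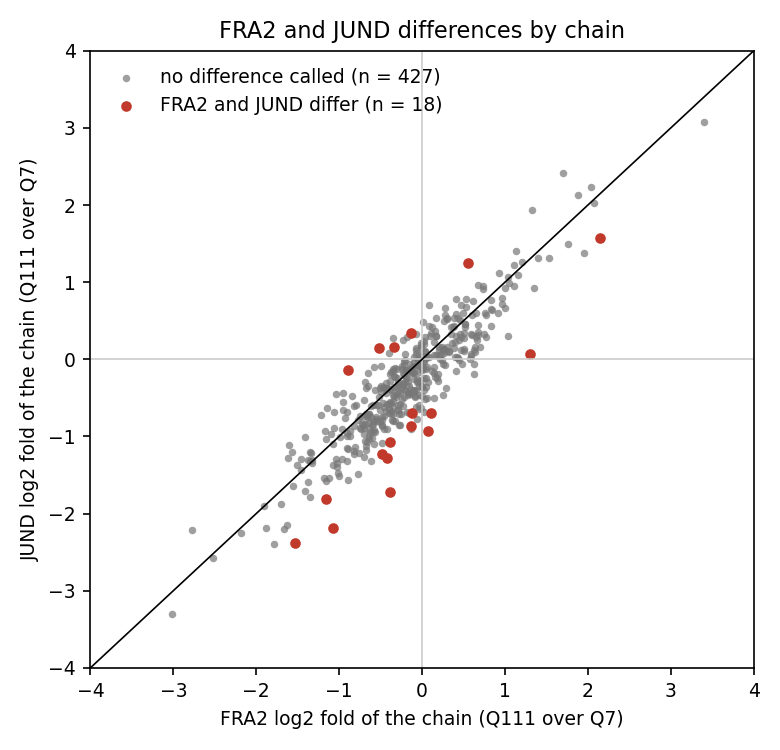
Log2 fold (Q111 over Q7) of summed FRA2 reads (x axis) and summed JUND reads (y axis) of each of the 445 dense chains, with a line of equal folds. Most chains lie along that line. The 18 red points are chains whose subunits differed by Fisher's exact test, 13 of them below the line and 5 above it.

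SOX2, measured in Q7 alone, was present in nearly all dense chains. Inside them, 1498 SOX2 events fell in 429 of the 445 chains (96.4%), with a median of 3 and at most 21 per chain. Of lone FRA2 events, 17.4% had a SOX2 event within 100 bp, and a longer chain has more room for one. The share over all chains was not counted. A SOX2 event lay within 100 bp of 37.8% of member FRA2 events and of 23.6% of all FRA2 events. Since no SOX2 library of Q111 was analysed here, no SOX2 difference between the lines can be given.

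Chains with more SOX2 events had lower FRA2 folds (Q111 over Q7). The 16 chains without SOX2 had a median FRA2 log2 fold of 0.999, all 16 lay above 0, and 8 of them were called higher in Q111. With 1 SOX2 event the median was 0.38 (56 chains, 8 of them called higher in Q111 and 0 in the other direction). With 2 events it was -0.08 (90 chains, 3 and 7). With 3 to 5 events it was -0.29 (233 chains, 2 and 34), and with 6 or more -0.48 (50 chains, 0 and 7). JUND medians fell in the same order, at 0.84, 0.17, -0.29, -0.40 and -0.48. Median FRA2 reads in Q7 rose along these classes from 180.0 to 663.5, and in Q111 they were 334.4 in the first class and 450.0 in the last. SOX2 events were listed from Q7 alone, and the part of that listing and of Q7 read depth in this order was not tested. The classes were not counted over smaller chains, so the order may not be particular to dense chains.

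**Figure D5:**
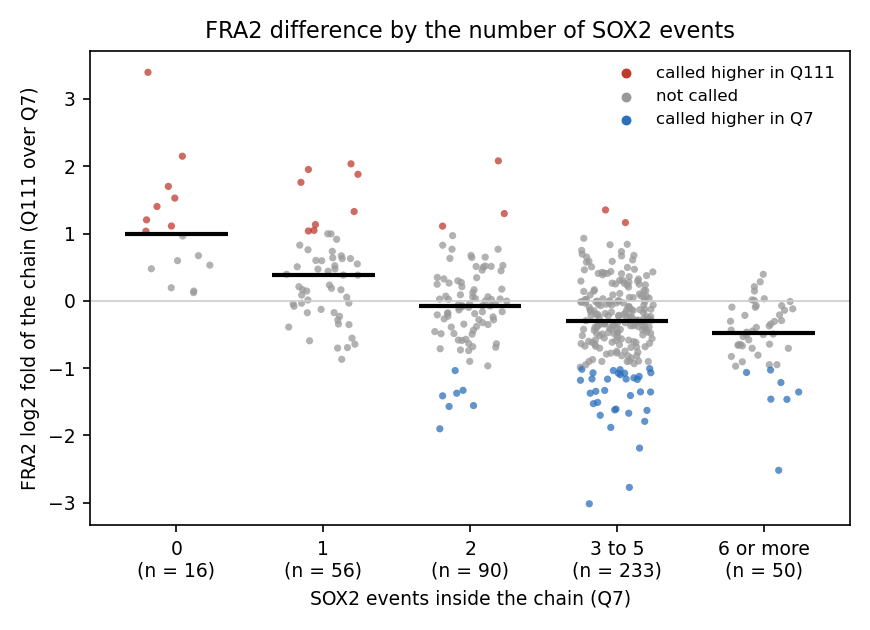
FRA2 log2 fold (Q111 over Q7) of each dense chain by the number of SOX2 events inside it in Q7, with a bar at the median of each class. The medians run from 0.999 in the 16 chains without SOX2 to -0.48 in the 50 chains with 6 or more. Red and blue points are chains called higher in Q111 and in Q7.

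The same held between events of a chain. The 1184 member events with SOX2 within 100 bp had a median log2 fold of -0.55, of which 3.29% were called higher in Q111 and 31.8% in the other direction. The 1949 without SOX2 had a median of -0.05, with 19.1% and 19.2%. In the 416 chains that hold both kinds, events with SOX2 had a lower median log2 fold in 285, and the median within-chain difference was -0.39 (quartiles -0.99 and 0.14). Among events present in both lines that difference was -0.23, lower in 222 of 350 chains, a restriction chosen after seeing the data. For JUND folds it was -0.35, lower in 244 of 384 chains. Events with SOX2 had more FRA2 reads, with medians of 75 in Q7 and 48.7 in Q111 against 30 and 32. The part of those reads, and of the listing of SOX2 from Q7 alone, was not tested. Calls of events with SOX2 were not counted over the whole FRA2 table, so they may not be particular to dense chains.

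The chain with the most SOX2 events lay on chromosome 19, 5837724 to 5851552, with 21 SOX2 events carrying 814 reads beside 11 FRA2 and 13 JUND events. Its FRA2 sum was 741.5 reads in Q7 against 396.3 in Q111, 1.93-fold higher in Q7 (interval 1.71 to 2.19) and just inside the 2-fold limit. All 11 FRA2 events lay below 0, with log2 folds of -0.39 to -2.31, and 5 of them were called. None passed the test against the other events. JUND there had 653.3 and 436.5 reads.

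Dense chains lay on 20 chromosomes. Chromosome 15 held 49, chromosome 10 held 42 and chromosome 11 held 41, while chromosome 18 held 3 and X 2. The share of a chromosome's FRA2 events that fell in dense chains ran from 1.14% on chromosome 18 to 8.67% on chromosome 15. Median chain log2 folds were lowest on chromosome 17 at -0.56 (20 chains), where all FRA2 events also had a low median of -0.47, and on chromosome 13 at -0.50 (15 chains), where all events had -0.05.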

How the data were processed

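Per the submitters' processing notes, reads were aligned with Bowtie 0.12.7 to mm9. GPS, the event caller, appears in the table names, its settings not given in the sources used. Per the file headers, the deposited IP values are expected counts of reads assigned to an event. Between 78.0% and 89.6% of them are whole (tolerance 1e-8), and they were rounded for tests. The deposited control values are a signal of scaled control reads whose library the headers do not name. The deposited q-value of IP against control, as −log10, served in 1 alternative, and the present marks are the authors' own. Another 23 value columns were left unused.

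The 7 samples were grouped by title. Chains were formed by position, and the members and lists were chosen with earlier results of these data known. The two-sided exact binomial test took its expected Q111 share from the median log2 ratio of events present in both lines (0.05 for FRA2, 0.07 for JUND). Benjamini-Hochberg adjustment ran over all chains or all events, and folds carry a pseudocount of 0.5 reads. Fold intervals are 95% Clopper-Pearson intervals and percentage intervals are Wilson intervals. The fold intervals cover counting error of reads taken as independent, and PCR copies of a molecule would make them too narrow. The Wilson intervals take chains as independent draws. Neither kind holds a spread between replicates. JUND and SOX2 events were counted inside a chain's span and 100 bp on either side. Two-sided Fisher's exact tests took the smaller tail doubled. With pooled replicates, p-values measure differences between libraries.

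The chains named were the 5 with the most events, most FRA2 reads, most SOX2 events and most differing events, the 8 called ones per direction whose interval lay farthest from 1, and the 5 with the smallest p of FRA2 against JUND. Alternatives changed the scaling, the control, the events used, the gap, the chain size, the fold limit, the assumed spread and the margin. The rules were tested on simulated data. Python 3.11.15, numpy 2.4.6, scipy 1.17.1, pandas 2.3.3 and matplotlib 3.10.9 were used. No mm9 genome or annotation was used here, so genes, motifs and sequences are not given.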

Additional observations from a re-analysis of the deposited data

Results flagged for a closer look

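In 5 dense chains the change of FRA2 between the lines differed from that of JUND by Fisher's exact test with the smallest adjusted p-values. On chromosome 11 from 3047381, the chain with high control reads, FRA2 was 4.43-fold and JUND 2.98-fold higher in Q111 (408.2 and 1279.4 JUND reads), a log2 difference of 0.57 (adjusted p = 2.07e-05, Fisher's exact test). On chromosome 10 from 84034043 the log2 difference was 1.23 (adjusted p = 0.000249 by Fisher's exact test), with FRA2 called higher in Q111 and JUND near even. On chromosome 4 from 98825361 FRA2 had 574.7 reads in Q7 against 636.8 in Q111 and JUND 314.9 against 205, a log2 difference of 0.79 (adjusted p = 0.000949, Fisher's exact test). On chromosome 17 from 44162239 FRA2 had 811 and 600 reads, JUND 409.9 and 183.9, a log2 difference of 0.75 (adjusted p = 0.00149, Fisher's exact test). On chromosome 19 from 34437353 the log2 difference was 1.0 (adjusted p = 0.00169, Fisher's exact test). The JUND call of the chromosome 11 chain was lost with scaling by control reads. In all 5 FRA2 lay further towards Q111 than JUND. The summed FRA2 and JUND events numbered 8 and 3 on chromosome 11, 7 and 4 on chromosome 10 and 6 and 4 on chromosome 19. They numbered 7 and 6 on chromosome 4 and 8 and 8 on chromosome 17.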

How the results depend on the processing

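Each group was 1 pooled sample, so counting error is the only error known, and reads outside listed events set no background. No paired analysis was possible because each group was 1 pooled sample, and no replicate could be left out. Main values were 4.85% of FRA2 events in dense chains, 4.72% and 10.8% of chains higher in Q111 and in Q7 for FRA2, 4.04% and 14.8% for JUND, 13.2% and 24.0% of FRA2 events, and 4.04% of chains with FRA2 different from JUND. Scaling by control reads gave 2.25% and 22.5% for FRA2, 1.35% and 49.2% for JUND and 8.17% of events higher in Q111. Subtracting control gave 6.29% for JUND higher in Q111 and 18.0% with FRA2 different from JUND. Events with at least 40 reads gave 3.23% of events in 239 dense chains, 2.93% and 7.11% for FRA2 and 2.09% for JUND higher in Q111. A gap of 2500 bp gave 1.005% of events in 99 chains, 3.03% higher in Q111 and 1.01% with FRA2 different from JUND, and a gap of 10000 bp gave 15.7% of events in 1293 chains and 6.89% with FRA2 different from JUND. Chains of at least 5 events held 8.72% of events, and those of at least 8 held 1.58%, with 1.80% and 5.41% of chains called. A fold limit of 1.5 gave 12.6% and 25.2% for FRA2 and 9.44% and 35.3% for JUND. A limit of 3 gave 1.80% and 2.70% for FRA2 chains, 6.73% and 12.1% for events and 1.35% and 4.04% for JUND. A dispersion of 0.05 gave 2.92% and 6.74% of chains and 6.89% and 12.6% of events. Without the margin 11.04% of chains had FRA2 different from JUND. The other 106 of 141 percentages recomputed were within 1.5 times of the main one. Named chains were recomputed only under the alternatives of scaling, control subtraction, fold limit and, for FRA2, dispersion. There 34 called sums gave 255 values, all of the same direction, and 10 were no longer past the limits. The fold limits and the dispersion leave a log2 fold unchanged, so the direction could not turn under them. Named chains were not followed through the alternatives of gap, chain size, margin or events used. Apart from changed construction (other scaling, fewer events, other limits), the cause was not tested.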

Other observations

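Some dense chains lay close together and could be set side by side. Within 100 kb of each other were 33 pairs of dense chains, and 19 of them had folds of the same sign. On chromosome 8 the chain from 96779740 to 96798942 had 217 FRA2 reads in Q7 and 381.5 in Q111 (log2 fold 0.77, interval of the fold 1.44 to 2.02). The next chain began 11078 bp further on, at 96810020, and had 617.6 and 317 reads (log2 fold -1.01, interval of the fold 0.43 to 0.57). JUND went the same way in each, with log2 folds of 0.57 and -1.51. On chromosome 11 the chain from 81810775 was near even (489.8 and 449.9 reads), and its neighbour from 81845929, 8434 bp away, was higher in Q111 (314 and 581 reads, log2 fold 0.84). On chromosome 15 the chain with the most Q7 reads, from 76020471, was followed after 5447 bp by a chain from 76049695 with 319.4 reads in Q7 and 111.8 in Q111 (log2 fold -1.56, interval of the fold 0.27 to 0.42). Fold intervals of the paired chains did not overlap in these 3 cases, which were chosen after their values were seen.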
